A study of Mus musculus with 15 samples.

Results

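Slc38a2, the gene of the sodium-coupled neutral amino acid transporter SNAT2, was followed in mouse hearts together with 8 genes of the integrated stress response: Chac1, Atf4, Atf5, Ddit3, Asns, Trib3, Slc3a2 and Slc7a5. These 9 genes, of 12391 genes that could be summed from the deposited transcripts, were chosen by name with their levels in these same groups already known. The levels and fold changes of the 9 genes are therefore given as a description that supports nothing, and their calls in the fit over all genes are given only beside the share of all genes called. All 9 were listed in the files and all 9 passed the filter on low values, which kept 12267 genes that reached 0.5 FPKM in 5 or more of the 15 libraries.

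The RNA came from whole hearts of male C57BL/6 mice. AngII+QDG hearts were from mice given both angiotensin II, the vasoconstrictor peptide used to load the heart through pressure, and QDG, an agent known from the labels only by its abbreviation. AngII hearts were from mice given angiotensin II without QDG, and Control hearts were from mice labelled as controls. Each group had 5 mice and 1 library per mouse, named below by group and replicate number. Doses, durations and ages were not stated in the sources used here, and no single-gene perturbation was part of the design. The study asked which genes differ between AngII and Control hearts and which differ once QDG is added.

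In the integrated stress response, kinases that sense amino acid shortage, misfolded protein in the endoplasmic reticulum, viral RNA or haem deficiency phosphorylate the translation factor eIF2. Bulk translation then falls while translation of the mRNAs of ATF4 and ATF5 rises, and ATF4 raises transcription of amino acid transporters, amino acid enzymes and stress regulators, Slc38a2 among them in many cell types. Slc38a2 can also be raised by hypertonic stress and by insulin or growth signals, and because ATF4 is controlled largely at translation, the level of its mRNA does not measure the amount of its protein.

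Stretches near the start of 4 of the genes are shown, 3 of them upstream and that of Trib3 just after the start, because ATF4 binds a composite element with the core TGATGNAA, and the letters can be seen beside the levels that follow. Sequences are from RefSeq on GRCm38.p6, written 5′ to 3′ on the strand of the gene, with positions counted from the annotated start as +1. Capitals mark a match to TGATGNAA on either strand. Slc38a2 is shown from -250 to -1 (chr15:96699729-96699978, minus strand), Chac1 from -223 to -156 (chr2:119351019-119351086, plus strand), Asns from -53 to -1 (chr6:7693210-7693262, minus strand) and Trib3 from +4 to +33 (chr2:152344028-152344057, minus strand).
Slc38a2: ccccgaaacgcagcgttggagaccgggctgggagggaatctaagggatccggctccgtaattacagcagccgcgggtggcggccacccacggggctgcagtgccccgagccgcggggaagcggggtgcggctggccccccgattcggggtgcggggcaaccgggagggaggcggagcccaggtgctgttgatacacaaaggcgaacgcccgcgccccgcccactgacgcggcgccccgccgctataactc
Chac1: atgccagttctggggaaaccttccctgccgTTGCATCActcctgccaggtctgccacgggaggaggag
Asns: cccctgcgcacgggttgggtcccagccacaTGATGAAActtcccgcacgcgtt
Trib3: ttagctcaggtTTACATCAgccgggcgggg

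Of the 9 genes, 8 had a promoter in the table, which runs from 250 bases before to 50 after each start: Slc38a2, Chac1, Atf4, Atf5, Ddit3, Asns, Trib3 and Slc3a2. TGATGNAA was present in 3 of the 8, at -193 to -186 of Chac1 and +15 to +22 of Trib3 on the opposite strand, and at -23 to -16 of Asns on the strand of the gene. The same letters were present in 3.97% of all 32851 promoters of the table and in 4.51% of its 27025 genes. The longer TGATGNAAT was in 0 of the 8 and in 0.965% of all promoters (1.08% of genes). The endoplasmic reticulum stress element, searched as CCAAT followed 9 bases later by CCACG on either strand, was in 0 of the 8 and in 0.119% of all promoters (0.137% of genes). No match in the Slc38a2 window says only that these letters are not in this window, and the element described for human SLC38A2 lies in the first intron, outside it.

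In units of 1000000 fragments, as read from the steps of the deposited values, depth was 51.6 to 76.5 in AngII+QDG libraries, 56.6 to 78.3 in AngII libraries and 65.7 to 72.9 in Control libraries. They differed in the balance between short and long transcripts, measured as the mean log2(FPKM + 1) of coding transcripts under 1000 nt minus that of coding transcripts of at least 3000 nt. This balance was 0.645 to 0.886 in AngII+QDG libraries, 0.766 to 0.961 in AngII libraries and 0.979 to 1.40 in Control libraries, so that no Control library overlapped the others and the balance and the groups cannot be told apart. Control 3 and Control 5, at 1.40 and 1.36, stood farthest out. The share of listed transcripts at 0 was 4.86 to 6.71% in AngII+QDG, 4.96 to 7.10% in AngII and 6.93 to 20.6% in Control libraries. It was highest in Control 5 (20.6%) and Control 3 (12.7%), and its part in the results was not tested. All 7 cardiomyocyte markers were listed in every group, with summed levels of 16854 to 30654 FPKM in AngII+QDG hearts, 22169 to 25332 FPKM in AngII hearts and 20412 to 28861 FPKM in Control hearts. The 6 smooth muscle and pericyte markers summed to 179 to 285 FPKM in AngII+QDG, 225 to 347 FPKM in AngII and 131 to 237 FPKM in Control hearts, with Pdgfrb at 0 in some Control and Myh11 at 0 in some AngII libraries. The median log2 fold change of the smooth muscle and pericyte markers was 0.33 for AngII+QDG over Control and 0.39 for AngII over Control, that of 7 fibroblast markers 0.36 and 0.43, that of 6 endothelial markers 0.39 and 0.39, and that of 3 erythroid markers -0.42 and -0.57. Limma called 2 fibroblast and 2 endothelial markers higher for AngII+QDG over Control and 0 of either for AngII over Control, and 0 erythroid markers in both. Of 7 macrophage markers 1 was called higher in each comparison with Control, with medians of -0.11 with QDG and 0.077 without. For AngII over Control 1 cardiomyocyte and 1 smooth muscle and pericyte marker were called higher. Of all genes 16.0% were called higher for AngII+QDG over Control and 11.9% for AngII over Control. Summed levels overlapped between all 3 groups, at 639.7 to 899.6, 619 to 922 and 452 to 714 FPKM for fibroblasts, 637 to 941, 706 to 998 and 571 to 861 FPKM for endothelium, and 1900.45 to 7269.6, 1404 to 5693 and 2406 to 9051 FPKM for erythroid cells, in the order AngII+QDG, AngII and Control. The part of these cell types in the results was not tested. Across all 12267 genes the median log2 fold change was 0.18 for AngII+QDG over Control, 0.20 for AngII over Control and -0.017 for AngII+QDG over AngII, and the fold changes below are to be read against these medians. The comparisons share libraries: both comparisons with Control use the same Control hearts, and both comparisons with AngII+QDG use the same AngII+QDG hearts.

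Slc38a2, which carries small neutral amino acids such as glutamine and alanine into cells with sodium, lies on chr15:96687392-96699730 on the minus strand (GRCm38). Its level was 44.4, 35.7, 49.6, 48.4 and 51.7 FPKM in the 5 AngII+QDG hearts, 40.4, 41.5, 28.1, 42.8 and 50.1 FPKM in the 5 AngII hearts, and 11.1, 12.4, 12.3, 17.4 and 10.6 FPKM in the 5 Control hearts. Every AngII+QDG and every AngII heart was above every Control heart, while AngII+QDG and AngII hearts overlapped. The group means were 46.0 ± 6.33 FPKM in AngII+QDG, 40.6 ± 7.94 FPKM in AngII and 12.8 ± 2.69 FPKM in Control hearts (SD, n = 5 each). The log2 fold change on log2(FPKM + 1) was 1.78 ± 0.16 (SE) for AngII+QDG over Control, 1.59 ± 0.16 for AngII over Control and 0.19 ± 0.16 for AngII+QDG over AngII. By size, Slc38a2 ranked 51st of 12267 genes from the highest for AngII+QDG over Control and 72nd for AngII over Control. The values rested on 10940 to 17739 recovered fragments in AngII+QDG libraries, 8201 to 18347 in AngII libraries and 3400 to 5923 in Control libraries. In whole-heart RNA, fewer cells of a type and less RNA per cell cannot be told apart.

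**Figure D1:**
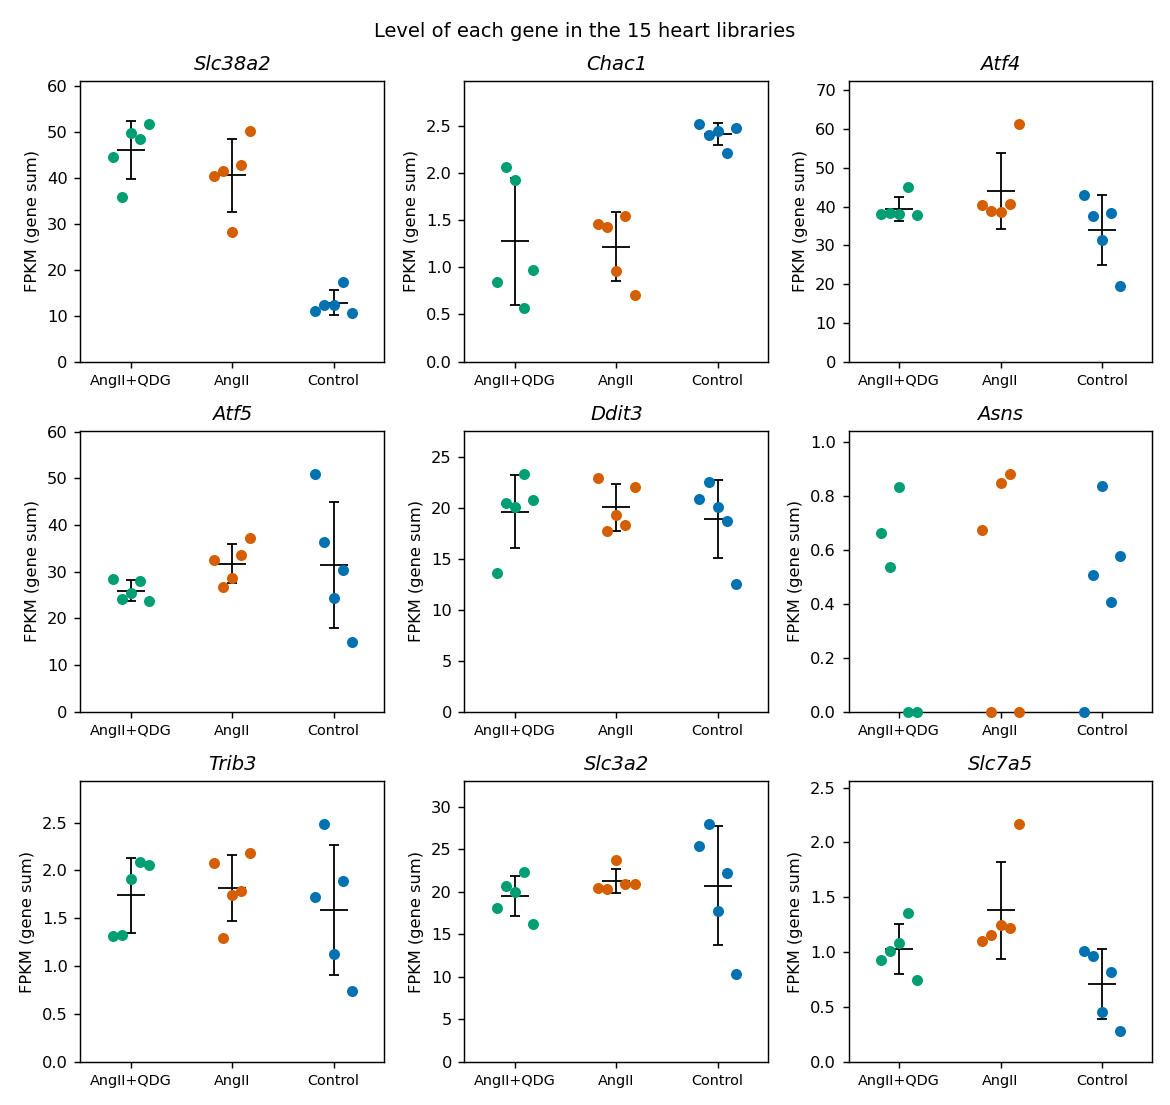
Level of each of the 9 genes in FPKM, summed over its listed transcripts, in the 15 libraries (points), with the mean and SD of the 5 libraries of a group (black bars; none for Asns, which is listed at 0 in 5 libraries). Slc38a2 lies between 28.1 and 51.7 FPKM in AngII+QDG and AngII hearts and at or below 17.4 FPKM in Control hearts, Chac1 lies highest in Control hearts, and the groups overlap for Atf4, Atf5, Ddit3, Trib3 and Slc3a2.

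Slc38a2 has a long mRNA, its coding transcript Slc38a2-201 being 4660 nt, so its length places it on the side of the balance that was higher in AngII+QDG and AngII libraries. Among 5620 genes whose longest listed transcript was at least 3000 nt, the median log2 fold change was 0.34 for AngII+QDG over Control and 0.33 for AngII over Control. Of these genes, 40 (0.712%) were at or above Slc38a2 for AngII+QDG over Control and 59 (1.05%) for AngII over Control. With the balance as a covariate the log2 fold change of Slc38a2 was 1.37 ± 0.25 for AngII+QDG over Control and 1.22 ± 0.24 for AngII over Control, and neither was called, in a fit that called 0 genes of either comparison with Control. AngII 3 and Control 4 were the treated and untreated libraries nearest in balance, at 0.961 and 0.979. Slc38a2 was 28.1 FPKM in AngII 3, its lowest AngII value, and 17.4 FPKM in Control 4, its highest Control value. Without Control 3 and Control 5 the log2 fold change was 1.70 ± 0.19 for AngII+QDG over Control and 1.51 ± 0.19 for AngII over Control.

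**Figure D2:**
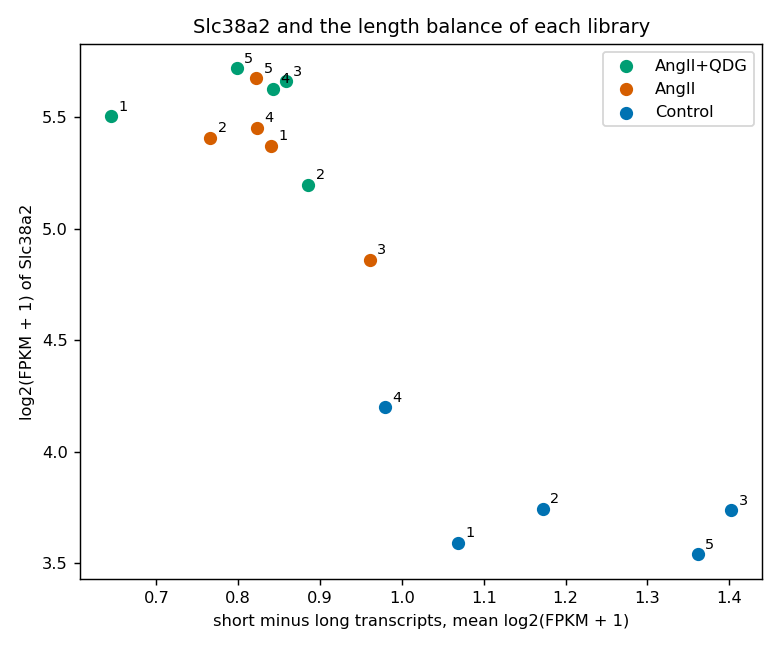
Level of Slc38a2 as log2(FPKM + 1) against the balance of short over long coding transcripts (mean log2(FPKM + 1) of short minus long) in each of the 15 libraries, numbered by replicate. The 5 Control libraries have the highest balance (0.979 to 1.40) and the lowest Slc38a2, and AngII 3 and Control 4 lie next to each other in balance.

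The transcript that retains an intron, Slc38a2-202, made up little of the gene. It was at 0.564 to 1.43 FPKM in AngII+QDG, 0.402 to 0.674 FPKM in AngII and 0.0123 to 0.213 FPKM in Control hearts, with no Control heart in the range of the others. Slc38a2-201 held 97.9 ± 0.653% of the gene's FPKM in AngII+QDG hearts, 98.6 ± 0.270% in AngII hearts and 98.9 ± 0.706% in Control hearts (SD, n = 5 each). Over 15 comparisons of the main transcript's share, in Slc38a2, Atf4, Atf5, Ddit3 and Slc3a2, none passed 0.05 after Benjamini-Hochberg adjustment in an exact two-sided permutation test over 252 arrangements. The share of Slc38a2-201 was 0.753 percentage points lower in AngII+QDG than in AngII hearts (exact permutation p = 0.0159, adjusted p = 0.119). The share of Atf4-201 was 95.8 ± 1.05% in AngII+QDG hearts and 97.3 ± 0.341% in Control hearts (exact permutation p = 0.00794, the smallest this design allows, adjusted p = 0.119).

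Chac1, an ATF4 and CHOP target whose enzyme breaks down glutathione, ran the other way. It lies on chr2:119351229-119354381 on the plus strand. Its level was 0.84, 2.06, 1.93, 0.568 and 0.976 FPKM in the 5 AngII+QDG hearts, 1.46, 1.42, 0.96, 1.54 and 0.71 FPKM in the 5 AngII hearts, and 2.52, 2.40, 2.45, 2.21 and 2.47 FPKM in the 5 Control hearts. All 10 AngII+QDG and AngII hearts were below all 5 Control hearts, with a wide spread in AngII+QDG hearts. Means were 1.27 ± 0.675 FPKM in AngII+QDG, 1.22 ± 0.364 FPKM in AngII and 2.41 ± 0.120 FPKM in Control hearts (SD, n = 5 each). The log2 fold change was -0.63 ± 0.18 (SE) for AngII+QDG over Control, -0.64 ± 0.18 for AngII over Control and 0.0019 ± 0.18 for AngII+QDG over AngII. Chac1 was a low gene, at 48 to 258 fragments in AngII+QDG libraries, 91 to 193 in AngII libraries and 261 to 295 in Control libraries. On the fragments themselves, with limma voom, its log2 fold change was -1.07 ± 0.32 for AngII+QDG over Control and -1.08 ± 0.31 for AngII over Control.

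Atf4, the transcription factor at the centre of the response, lies on chr15:80255184-80257541 on the plus strand. Its level was 38.1, 38.2, 38.0, 45.0 and 37.8 FPKM in AngII+QDG hearts, 40.4, 38.9, 38.7, 40.7 and 61.4 FPKM in AngII hearts, and 43.1, 37.6, 31.3, 38.4 and 19.4 FPKM in Control hearts. The groups overlapped: the 3 highest Control hearts lay at 37.6 to 43.1 FPKM, in or just under the range of the other groups, and Control 5 stood lowest. The log2 fold change was 0.25 ± 0.18 (SE) for AngII+QDG over Control, 0.39 ± 0.18 for AngII over Control and -0.13 ± 0.18 for AngII+QDG over AngII. Its sign for AngII+QDG over Control depended on the scaling and the libraries, at -0.0077 with libraries set to 1 median, -0.24 with the balance as a covariate and -0.010 without Control 3 and Control 5. For AngII over Control it turned to -0.060 with the balance as a covariate.

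Atf5, a related transcription factor also controlled at translation, lies on chr7:44812256-44816658 on the minus strand and overlaps Nup62 and Il4i1 on the other strand. It averaged 25.9 ± 2.25 FPKM in AngII+QDG, 31.7 ± 4.17 FPKM in AngII and 31.4 ± 13.5 FPKM in Control hearts (SD, n = 5 each). The Control hearts spread widely, between 14.9 FPKM in Control 5 and 51.0 FPKM in Control 1, and enclosed all AngII+QDG and AngII hearts. The next lowest Control heart was Control 3 at 24.4 FPKM, just above AngII+QDG 2 (24.1 FPKM) and AngII+QDG 5 (23.6 FPKM). Ddit3, which encodes CHOP, a factor of prolonged stress and cell death, lies on chr10:127290774-127296288 on the plus strand and overlaps Mars and Gm4189 on the other strand. It averaged 19.7 ± 3.63 FPKM in AngII+QDG, 20.1 ± 2.30 FPKM in AngII and 19.0 ± 3.85 FPKM in Control hearts (SD, n = 5 each), and the 3 groups overlapped. Whether the counting used strand was not stated, so reads of Atf5 or Ddit3 and of the genes opposite them cannot be told apart.

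Asns, which makes asparagine, and Trib3, a pseudokinase induced by ATF4 that dampens its activity, both had the core motif in their windows and were low. Asns was listed at 0.663, 0.538, 0.835, 0 and 0 FPKM in AngII+QDG hearts, 0.675, 0, 0.851, 0.883 and 0 FPKM in AngII hearts, and 0, 0.508, 0.837, 0.408 and 0.579 FPKM in Control hearts. The values above 0 overlapped in all 3 groups, and Asns-202, of 2016 nt, was its only listed transcript of 7 annotated. Trib3 was 1.32 to 2.09 FPKM in AngII+QDG, 1.29 to 2.18 FPKM in AngII and 0.739 to 2.48 FPKM in Control hearts, so that Control hearts enclosed the others.

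Slc3a2 and Slc7a5 encode the heavy and the light chain of the LAT1 exchanger, which trades glutamine for leucine and other large neutral amino acids. Slc3a2 (chr19:8706882-8723369, minus strand) averaged 19.5 ± 2.36 FPKM in AngII+QDG, 21.2 ± 1.40 FPKM in AngII and 20.7 ± 6.97 FPKM in Control hearts (SD, n = 5 each). Its groups overlapped, and transcript Slc3a2-202, listed only in AngII+QDG files, added 0.179 to 0.587 FPKM there. Slc7a5 (chr8:121881150-121907694, minus strand, overlapping Gm20388) was 0.929, 1.01, 1.09, 1.36 and 0.745 FPKM in AngII+QDG hearts, 1.10, 1.16, 1.25, 1.22 and 2.17 FPKM in AngII hearts, and 1.01, 0.969, 0.454, 0.823 and 0.285 FPKM in Control hearts. Means of Slc7a5 were 1.03 ± 0.226 FPKM in AngII+QDG, 1.38 ± 0.444 FPKM in AngII and 0.708 ± 0.322 FPKM in Control hearts (SD, n = 5 each). AngII hearts lay above all Control hearts, the nearest pair being 1.10 and 1.01 FPKM, while AngII+QDG hearts overlapped both. The log2 fold change of Slc7a5 was 0.26 ± 0.15 (SE) for AngII+QDG over Control, 0.48 ± 0.15 for AngII over Control and -0.22 ± 0.15 for AngII+QDG over AngII. For AngII over Control it ran from 0.20 to 1.06 over 25 alternative settings, and was 0.22 ± 0.11 with libraries set to 1 median and 0.28 ± 0.15 without Control 3 and Control 5. For AngII+QDG over Control it reached 0.63 at the highest of the 25 settings, but turned to -0.00035 with libraries set to 1 median and to -0.052 with the balance as a covariate. The log2 fold changes of Asns, Atf5, Ddit3, Slc3a2 and Trib3 over Control changed sign in 1 to 7 of 25 alternative settings.

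**Figure D3:**
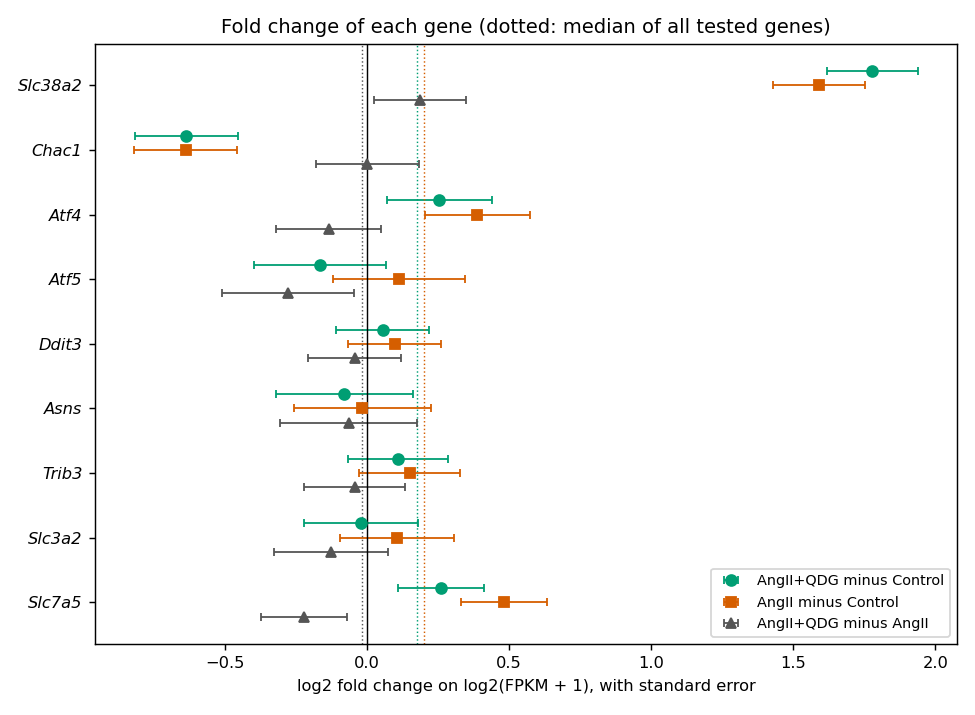
Log2 fold change on log2(FPKM + 1), with its standard error, of each of the 9 genes for AngII+QDG over Control, AngII over Control and AngII+QDG over AngII, with dotted lines at the median of all 12267 tested genes. Slc38a2 lies at 1.78 and 1.59 over Control, Chac1 at -0.63 and -0.64, and the other 7 genes lie between -0.28 and 0.48 in all 3 comparisons.

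Counted by limma over all tested genes, with a Benjamini-Hochberg adjusted p under 0.05, 1 of the 9 genes was called higher (Slc38a2) and 1 lower (Chac1) for AngII+QDG over Control, where 19.4% of all genes were called, 16.0% higher and 3.31% lower. For AngII over Control, 2 were called higher (Slc38a2 and Slc7a5) and 1 lower (Chac1), where 13.4% of all genes were called, 11.9% higher and 1.48% lower. For AngII+QDG over AngII, 0 of the 9 were called, and limma called 0% of all genes, 0% higher and 0% lower, with 578 genes at an unadjusted p under 0.05 and 1 gene called by limma voom. The 2 groups did not overlap for 2 of the 9 genes for AngII+QDG over Control (14.5% of all genes), 3 of 9 for AngII over Control (11.1%) and 0 of 9 for AngII+QDG over AngII (1.39%). The call of Slc38a2 over Control held in 24 of 25 alternative settings in each comparison, all but the balance covariate. The call of Chac1 held in 19 of 25 settings for AngII+QDG over Control and in 12 of 25 for AngII over Control, and that of Slc7a5 for AngII over Control in 5 of 25. Atf5 was called lower for AngII+QDG over Control in 1 of 25 settings, without Control 3 and Control 5, where its log2 fold change was -0.55 ± 0.15. Leaving out any 1 AngII library, or Control 1, 2, 3 or 5, ended the call of Chac1 for AngII over Control, with log2 fold changes of -0.69 to -0.55. For AngII+QDG over Control it ended without AngII+QDG 1, 4 or 5, with log2 fold changes of -0.75 to -0.51 over the 15 libraries left out. Because the genes were chosen with these values known, nothing is read from these counts or from how the calls held.

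Slc38a2 was next set against the rest of the genes within each library. The mean log2(FPKM + 1) of the other 8 genes was 2.73 to 2.98 in AngII+QDG hearts, 2.79 to 3.04 in AngII hearts and 2.40 to 3.13 in Control hearts. The Control hearts enclosed the others only through Control 5 at 2.40. The next lowest Control heart was Control 3 at 2.82, above AngII 2 (2.79), AngII+QDG 1 (2.76) and AngII+QDG 5 (2.73). The log2 distance of Slc38a2 above that mean was 2.69 ± 0.25 in AngII+QDG, 2.39 ± 0.30 in AngII and 0.88 ± 0.32 in Control hearts (SD, n = 5 each), with no overlap of AngII+QDG or AngII with Control. The ratio of Slc38a2 to Atf4 in FPKM was 1.17 ± 0.175 in AngII+QDG, 0.932 ± 0.153 in AngII and 0.396 ± 0.111 in Control hearts. The main transcript of Slc38a2 (4660 nt) is longer than that of Atf4 (1725 nt) and than any listed transcript of the other genes. The distance and this ratio can therefore move with the balance of short over long transcripts, which separated Control from the other libraries. Its part in them was not tested. The mean of the other 8 genes also includes Chac1, Asns, Trib3 and Slc7a5, whose group means were 0.407 to 2.41 FPKM. Changes of such low genes are understated on log2(FPKM + 1), and a fall of 1 gene can offset a rise of another. A mean that differs little between groups therefore does not show that each of the 8 stayed the same. The ratio of Chac1 to Atf4 was 0.0330 ± 0.0183 in AngII+QDG, 0.0294 ± 0.0113 in AngII and 0.0771 ± 0.0292 in Control hearts. By mean FPKM, Slc38a2 was the highest of the 9 genes in AngII+QDG hearts, the second after Atf4 in AngII hearts and the fifth in Control hearts, after Atf4, Atf5, Slc3a2 and Ddit3. It overlapped Atf4, its neighbour in that order, in AngII+QDG and AngII hearts, and overlapped Ddit3 in Control hearts.

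**Figure D4:**
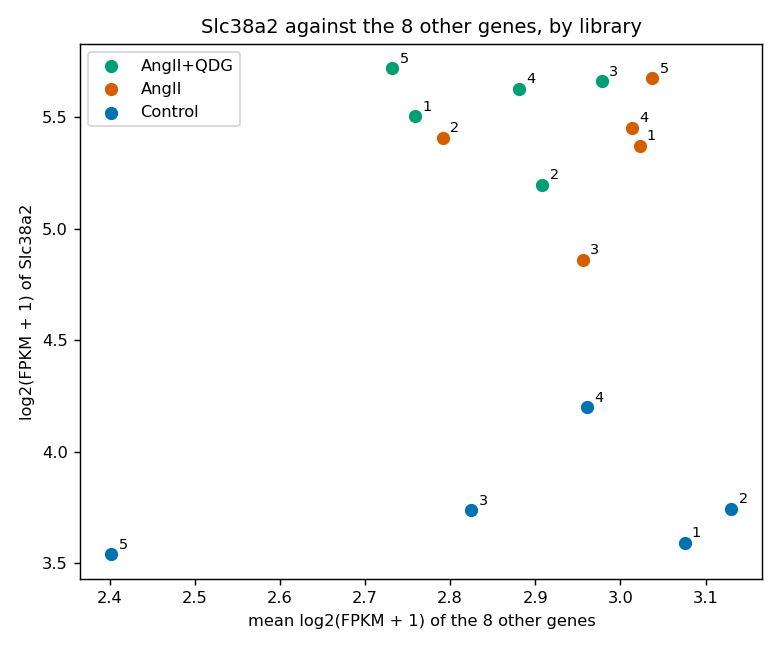
Level of Slc38a2 as log2(FPKM + 1) against the mean log2(FPKM + 1) of the other 8 genes in each of the 15 libraries, numbered by replicate. The groups overlap on the horizontal axis, where Control hearts span 2.40 (Control 5) to 3.13, and differ on the vertical axis.

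Among mice of the same group, Slc38a2 was set against each of the other 8 genes by correlating deviations from the group means over 15 libraries, with permutation within groups and adjustment over 8 relations. None passed 0.05. Atf4 had r = 0.45 (two-sided permutation p = 0.0993, adjusted p = 0.480; rho = 0.36, permutation p = 0.162, adjusted p = 0.649). Trib3 had r = 0.45 (permutation p = 0.120, adjusted p = 0.480) and rho = 0.59 (permutation p = 0.0289, adjusted p = 0.232). Chac1 had r = -0.26 (permutation p = 0.366, adjusted p = 0.562; rho = -0.17, permutation p = 0.577, adjusted p = 0.660). The others had r of -0.34 for Asns, 0.063 for Slc3a2, 0.21 for Atf5, 0.22 for Ddit3 and 0.33 for Slc7a5, each with an adjusted permutation p of 0.561 or more. Their rho was -0.21, -0.014, 0.24, 0.17 and 0.23 in the same order of genes, each with an adjusted permutation p of 0.660 or more. Without AngII 3 and Control 4, the 2 libraries farthest from the median of Slc38a2, r was 0.40 for Atf4, 0.55 for Trib3 and -0.57 for Chac1. With quantile normalization r was 0.063 for Atf4 (permutation p = 0.821) and 0.056 for Trib3 (permutation p = 0.845), and the rho of Trib3 was 0.036 (permutation p = 0.908). Slc38a2 had a median within-group r of 0.24 with all tested genes and an r of -0.51 with the balance of short over long transcripts, whose part in these relations was not tested.

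Genes whose pattern was most like that of Slc38a2 were ranked by Pearson's r of log2(FPKM + 1) over the 15 libraries among 9451 genes whose mean reached 1 FPKM. The points share the 3 groups and the balance, so r is a description. The 10 highest were Rcn1, a calcium-binding protein of the secretory pathway (0.979), Top1, DNA topoisomerase 1 (0.975), Mtpn, myotrophin (0.968), Cpd, carboxypeptidase D (0.967), Dnajc3, a co-chaperone of the endoplasmic reticulum that inhibits eIF2 kinases (0.963), Sacm1l, a phosphoinositide phosphatase (0.963), Abce1, a ribosome recycling factor (0.962), Snx4, a sorting nexin (0.962), Tjp1, the junction scaffold ZO-1 (0.961), and Bzw1, a translation regulator (0.961). Their log2 fold changes ran from 0.50 to 2.17 for AngII+QDG over Control, 0.47 to 2.16 for AngII over Control and -0.019 to 0.10 for AngII+QDG over AngII. The other 8 genes of the set and predicted gene models were left out when the 10 were chosen. The absence of these 8 from the 10 is therefore no result. Computed apart, r was 0.62 for Slc7a5, 0.55 for Atf4, 0.34 for Trib3 and 0.20 for Ddit3. It was 0.065 for Slc3a2, -0.0051 for Atf5, -0.16 for Asns and -0.77 for Chac1. Each of these values was below 0.961, the lowest r of the 10.

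Lists of related genes were then read from the same fit, by the count called and the median log2 fold change beside the share called and the median of all genes. Only tested genes are counted, which were 19 of 22 named ATF4 targets, 14 of 22 transporters and 8 of 10 serine, one-carbon and proline enzymes. They were also 17 of 18 genes of amino acid sensing, 6 of 8 hypertonic stress genes and all genes of the other lists. The lists were also chosen with earlier results of these data known. Their counts, shares and adjusted p values are therefore a description and no independent support. Over all genes 16.0% were called higher and 3.31% lower for AngII+QDG over Control, and 11.9% higher and 1.48% lower for AngII over Control. These shares hold for the main fit only. With libraries set to 1 median, 791 of all 12267 genes were called higher and 1625 lower for AngII+QDG over Control. For AngII over Control 361 were then called higher and 715 lower. With 1 library left out 1452 to 3022 and 316 to 2484 of all genes were called in either direction, in the same order of comparisons. Among 19 other ATF4 target genes, 4 rose and 0 fell for AngII+QDG over Control (median 0.12), 3 rose and 0 fell for AngII over Control (median 0.32), and 0 were called for AngII+QDG over AngII (median -0.068). These were 21.1% of the list against 16.0% of all genes, and 15.8% against 11.9%. With libraries set to 1 median 2 were called higher and 2 lower for AngII+QDG over Control, and 1 higher and 1 lower for AngII over Control. With 1 library left out 2 to 5 (2 without AngII+QDG 1) and 1 to 3 (1 without AngII 2, 4 or 5 or Control 3) were called higher. Vegfa, the angiogenic growth factor, rose to 45.2 ± 8.04 FPKM in AngII+QDG and 50.01 ± 3.13 FPKM in AngII hearts, against 24.9 ± 9.33 FPKM in Control hearts (SD, n = 5 each). Its log2 fold change was 0.90 ± 0.22 (SE, limma adjusted p = 0.0123) for AngII+QDG over Control and 1.06 ± 0.22 (limma adjusted p = 0.0149) for AngII over Control, and both calls held with any 1 library left out. Atf3, a stress-induced factor that ATF4 raises, was 2.84, 33.2, 8.66, 11.4 and 35.1 FPKM in AngII+QDG hearts, 14.8, 3.72, 3.04, 9.33 and 32.9 FPKM in AngII hearts, and 0, 1.37, 3.57, 1.99 and 0.692 FPKM in Control hearts. Its levels spread widely within both treated groups and overlapped Control hearts in each, and its log2 fold change was 2.67 ± 0.68 (SE, limma adjusted p = 0.0155) for AngII+QDG over Control and 2.18 ± 0.68 (limma adjusted p = 0.0469) for AngII over Control. The call for AngII over Control ended in 10 of 15 fits with 1 library left out, with an adjusted p of up to 0.110. Cebpg, a partner of ATF4, rose in both comparisons, by log2 fold changes of 0.49 ± 0.14 (limma adjusted p = 0.0231) for AngII+QDG over Control and 0.54 ± 0.14 (limma adjusted p = 0.0264) for AngII over Control. Its calls ended in 2 and 4 of 15 fits with 1 library left out, with an adjusted p of up to 0.0571 and 0.0646.

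A list of other amino acid transporters was chosen without the 3 in the set. It also left out Slc7a11, Slc7a1, Slc1a5 and Slc6a9, which were named with the ATF4 targets. Of its 14 tested genes 3 rose and 0 fell for AngII+QDG over Control (median 0.12). For AngII over Control 2 rose and 0 fell (median 0.20), and 0 were called for AngII+QDG over AngII (median 0.021). The shares of 21.4% and 14.3% stood against 16.0% and 11.9% of all genes. Set to 1 median, the libraries gave 1 higher and 1 lower for AngII+QDG over Control, and 0 higher and 1 lower for AngII over Control. Leaving out 1 library gave 2 to 4 and 0 to 3 higher, with 0 without AngII 2, 4 or 5 or Control 2 or 3. Slc38a4, a system A transporter like Slc38a2, was 1.93 ± 0.699 FPKM in AngII+QDG, 2.08 ± 0.179 FPKM in AngII and 1.08 ± 0.177 FPKM in Control hearts (SD, n = 5 each). It rose by 0.46 ± 0.15 (limma adjusted p = 0.0380) over Control with QDG and by 0.57 ± 0.15 (limma adjusted p = 0.0270) without. Each of these calls ended in 5 of 15 fits with 1 library left out, with an adjusted p of up to 0.0998 and 0.0646. Slc1a1, a glutamate transporter, and Slc7a6, a light chain that pairs with Slc3a2, rose for AngII+QDG over Control, by 0.52 ± 0.12 (limma adjusted p = 0.00849) and 0.70 ± 0.17 (limma adjusted p = 0.0115), with any 1 library left out as well. Of 8 enzymes of serine, one-carbon and proline synthesis, 1 rose in each comparison with Control (12.5%, against 16.0% of all genes with QDG and 11.9% without), and 0 were called in either with libraries set to 1 median or quantile normalized. The 1 gene was the serine enzyme Psat1, at 1.45 ± 0.213 FPKM in AngII+QDG, 1.45 ± 0.285 FPKM in AngII and 0.768 ± 0.281 FPKM in Control hearts. Its call for AngII over Control (limma adjusted p = 0.0311) ended in 6 of 15 fits with 1 library left out, with an adjusted p of up to 0.0754.

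Upstream, among 15 genes of eIF2, its kinases, its exchange factor and its phosphatase, 6 rose and 0 fell for AngII+QDG over Control (median 0.38), 2 rose and 0 fell for AngII over Control (median 0.31), and 0 were called for AngII+QDG over AngII (median 0.039). The shares were 40% of the list against 16.0% of all genes, and 13.3% against 11.9%. Libraries set to 1 median gave 2 higher and 2 lower for AngII+QDG over Control, and 1 higher and 1 lower for AngII over Control. With 1 library left out 3 to 6 were called higher for AngII+QDG over Control, with 3 without AngII+QDG 1, AngII+QDG 4 or Control 2, and 1 to 3 for AngII over Control. Eif2s3x, which encodes the gamma subunit of eIF2 and has a close copy on the Y chromosome with which reads could be shared, was 13.2 ± 1.60 FPKM in AngII+QDG, 12.03 ± 1.71 FPKM in AngII and 6.02 ± 2.14 FPKM in Control hearts (SD, n = 5 each). Its log2 fold change was 1.07 ± 0.19 (limma adjusted p = 0.00400) for AngII+QDG over Control and 0.94 ± 0.19 (limma adjusted p = 0.0149) for AngII over Control. Ppp1r15b, which directs phosphatase to eIF2, and Impact, an inhibitor of the kinase GCN2, rose for AngII+QDG over Control by 0.77 ± 0.19 (limma adjusted p = 0.0130) and 0.52 ± 0.13 (limma adjusted p = 0.0135). The call of Ppp1r15b for AngII over Control (limma adjusted p = 0.0479) ended in 13 of 15 fits with 1 library left out, with an adjusted p of up to 0.111. Among 20 cytosolic aminoacyl-tRNA synthetases, many of them ATF4 targets, 3 rose and 0 fell in each comparison with Control (medians 0.15 with QDG and 0.23 without) and 0 were called for AngII+QDG over AngII (median -0.057). This was 15% of the list in each, near the 16.0% and 11.9% of all genes. The same list with libraries set to 1 median had 2 higher and 2 lower for AngII+QDG over Control and 0 called for AngII over Control. Counts with 1 library left out ran from 2 (without AngII+QDG 1) to 6 and from 0 to 5 called higher. The 3 were Dars, Eprs and Iars, and Dars had 24.1 ± 3.70 FPKM in AngII+QDG, 23.3 ± 1.66 FPKM in AngII and 15.3 ± 2.70 FPKM in Control hearts (SD, n = 5 each). For AngII over Control all 3 calls ended without AngII 2, where the limma adjusted p of Dars was 0.0511.

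Among 21 genes of the unfolded protein response of the endoplasmic reticulum, 5 rose and 0 fell for AngII+QDG over Control (median 0.36), 6 rose and 0 fell for AngII over Control (median 0.37), and 0 were called for AngII+QDG over AngII (median -0.045). Of the list 23.8% and 28.6% were called higher, against 16.0% and 11.9% of all genes. With libraries set to 1 median 3 were called higher and 1 lower for AngII+QDG over Control, and 2 higher and 0 lower for AngII over Control. With 1 library left out the counts were 5 to 7 and 2 to 6 higher, with 2 without AngII 1, 2, 4 or 5 or Control 3. For AngII over Control the calls of Edem1 and Sel1l, both of the degradation of misfolded protein, ended in 6 and 4 of 15 such fits and those of Hspa5, the chaperone BiP, and Ern1 in 12 of 15. Dnajc3 was 7.81 ± 0.929 FPKM in AngII+QDG, 7.71 ± 0.988 FPKM in AngII and 4.73 ± 0.552 FPKM in Control hearts (SD, n = 5 each), with no overlap with Control, and rose by 0.62 ± 0.12 (limma adjusted p = 0.00478) and 0.60 ± 0.12 (limma adjusted p = 0.0131). Canx, a folding chaperone, Sel1l, a part of the degradation machinery, and Ern1, the sensor IRE1, rose for AngII+QDG over Control by 0.52 ± 0.11, 0.75 ± 0.17 and 0.66 ± 0.13 (limma adjusted p = 0.00617, 0.00856 and 0.00521). Among 17 genes of amino acid sensing by mTORC1, 5 rose and 0 fell for AngII+QDG over Control (median 0.20), 2 rose and 0 fell for AngII over Control (median 0.25), and 0 were called for AngII+QDG over AngII (median -0.011). The shares called higher were 29.4% and 11.8%, against 16.0% and 11.9% of all genes. Setting libraries to 1 median gave 1 higher and 2 lower for AngII+QDG over Control and 0 called for AngII over Control. Over the 15 fits with 1 library left out, 2 to 6 were called higher for AngII+QDG over Control, with 2 without AngII+QDG 1 or 5, and 0 (without AngII 2) to 5 for AngII over Control. The call of Rraga, a Rag GTPase, for AngII over Control ended in 12 of these fits, and that of Rragc, its partner, for AngII+QDG over Control in 13. Sesn1, a sestrin that restrains mTORC1 when leucine is low, was 50.8 ± 7.57 FPKM in AngII+QDG, 37.7 ± 4.45 FPKM in AngII and 24.6 ± 4.86 FPKM in Control hearts. It rose by 1.03 ± 0.14 (limma adjusted p = 0.00139) for AngII+QDG over Control and by 0.61 ± 0.14 (limma adjusted p = 0.0195) for AngII over Control, the second of which reached 0.0540 without AngII 2.

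Of 6 hypertonic stress genes, 1 rose for AngII+QDG over Control (median 0.12), 2 rose for AngII over Control (median 0.52) and 0 were called for AngII+QDG over AngII (median -0.29), and none fell. The 1 gene was 16.7% of the list, near the 16.0% of all genes, and the 2 were 33.3%, against 11.9%. With libraries set to 1 median or quantile normalized 0 were called in both comparisons with Control. Hspa4l, an osmotic stress chaperone, was called in both comparisons with Control. Sgk1, a kinase induced by salt and steroid hormones, was 25.7 ± 6.62 FPKM in AngII+QDG, 33.2 ± 8.41 FPKM in AngII and 20.8 ± 1.84 FPKM in Control hearts (SD, n = 5 each), with a limma adjusted p of 0.0476 for AngII over Control. The call of Hspa4l for AngII over Control ended in 9 of 15 fits with 1 library left out and that of Sgk1 in 10 of 15, with an adjusted p of up to 0.0960 and 0.112. Of 11 genes of mitochondrial proteostasis and its relay to eIF2, 5 rose and 1 fell for AngII+QDG over Control (median 0.47), 3 rose and 0 fell for AngII over Control (median 0.41), and 0 were called for AngII+QDG over AngII (median 0.050). These were 45.5% and 27.3% of the list called higher, against 16.0% and 11.9% of all genes. Setting libraries to 1 median gave 3 higher and 2 lower for AngII+QDG over Control, and 0 higher and 2 lower for AngII over Control. With 1 library left out 3 (without AngII+QDG 1) to 6 and 0 to 4 were called higher, with 0 without AngII 2, 4 or 5. The 3 called for AngII over Control, Hspa9, the mitochondrial HSP70, Opa1, the inner membrane fusion GTPase, and Yme1l1, an inner membrane protease, lost their calls in 14, 7 and 3 of these 15 fits. Hspd1, the mitochondrial chaperonin HSP60, was 47.5, 114.0, 42.8, 105.4 and 79.9 FPKM in AngII+QDG hearts, 29.0, 31.1, 20.3, 93.3 and 23.1 FPKM in AngII hearts, and 10.6, 12.2, 11.2, 30.1 and 25.6 FPKM in Control hearts. All AngII+QDG hearts were above all Control hearts, and the log2 fold change was 2.09 ± 0.42 (SE, limma adjusted p = 0.00621) for AngII+QDG over Control. Pseudogene copies of Hspd1 could share its reads. The 1 gene that fell, named here after its value was seen, was Hspe1, the partner chaperonin HSP10, at 145 ± 11.9 FPKM in AngII+QDG and 177 ± 19.9 FPKM in Control hearts (limma adjusted p = 0.0482). This call ended in 13 of 15 fits with 1 library left out, with an adjusted p of up to 0.115, and the adjusted p was 0.184 without Control 3 and Control 5. The log2 fold change of Hspe1 was -0.28, but -0.54 (limma adjusted p = 0.0140) with libraries set to 1 median. With quantile normalization it was -0.18 (limma adjusted p = 0.0932).

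**Figure D5:**
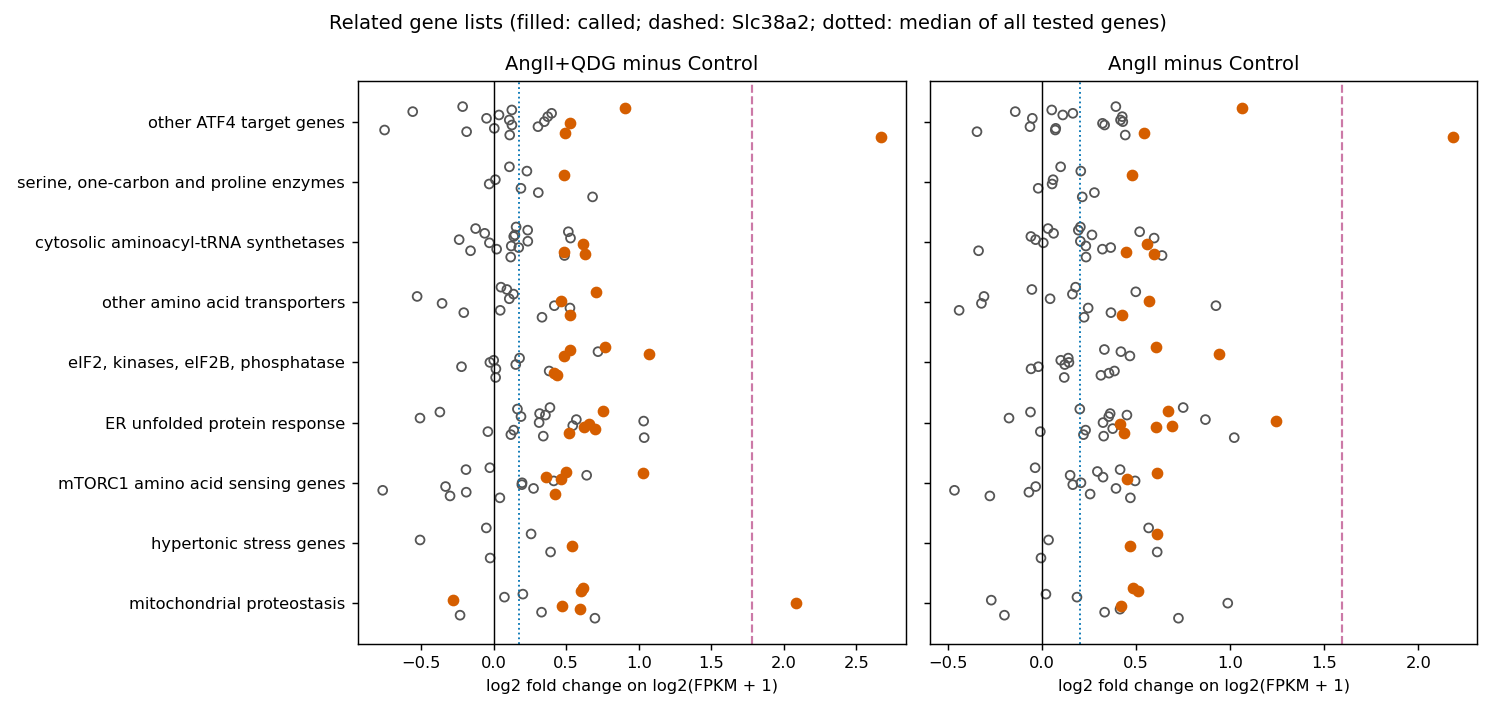
Log2 fold change on log2(FPKM + 1) of every tested gene of the 9 related lists for AngII+QDG over Control (left) and AngII over Control (right), filled where called by limma. The dashed line marks Slc38a2 (1.78 and 1.59) and the dotted line the median of all tested genes (0.18 and 0.20), and among the called genes Atf3 lies beyond Slc38a2 on both sides and Hspd1 on the left.

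The counts of these lists also differed with the Control libraries, the scaling and the model. Without Control 3 and Control 5, for AngII over Control, Vegfa among the ATF4 targets was called and 0 genes of the other 8 lists were, and with the balance as a covariate 0 genes of any list were called in either comparison with Control. For AngII+QDG over Control without Control 3 and Control 5, the genes called higher numbered 2 ATF4 targets, 1 transporter, 1 serine enzyme, 2 genes of eIF2 control, 2 synthetases, 5 unfolded protein response genes, 1 mTORC1 gene, 0 hypertonic stress genes and 3 mitochondrial genes, and 1 mTORC1 gene was called lower. Of all genes 968 were called higher and 231 lower for AngII+QDG over Control without these 2 libraries, and 93 and 4 for AngII over Control. Because no Control library overlapped the others in the balance, its part in these calls and that of the treatment cannot be told apart. With quantile normalization 0 to 5 genes of a list were called higher for AngII+QDG over Control and 0 or 1 for AngII over Control. Under it 1 ATF4 target, 1 transporter, 1 mTORC1 gene and 1 mitochondrial gene were called lower for AngII+QDG over Control. For AngII over Control 1 ATF4 target and 1 mitochondrial gene were called lower. Of all genes 983 were called higher and 999 lower for AngII+QDG over Control with quantile normalization, and 406 and 413 for AngII over Control. Of the genes named above as higher for AngII+QDG over Control, Vegfa, Atf3, Slc7a6, Eif2s3x, Ppp1r15b, Dars, Iars, Dnajc3, Sel1l, Ern1, Sesn1 and Hspd1 were called with libraries set to 1 median as well, and Cebpg, Slc38a4, Slc1a1, Psat1, Impact, Eprs, Canx and Hspa4l were not. For AngII over Control Vegfa, Eif2s3x, Dnajc3 and Sel1l were called under that scaling and 0 other list genes were called higher.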

How the data were processed

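RNA was taken from hearts with Trizol, depleted of ribosomal RNA and made into libraries with NEB kits, per the labels' protocols. Each library has 1 table deposited by the authors, whose values were taken as FPKM of transcripts because they behave so and the headers state no unit. The submitters' processing notes name GRCm38 and limma, while aligner, quantification tool and strand use are not given in the sources read here. Reads of paralogs and pseudogenes could be split between copies. GENCODE M21 named 24756 of 24789 Ensembl transcripts, which were summed to 12391 genes, and 8634 assembled transcripts were left out. Among low values (10 steps or fewer), 99.2 to 99.7% fell within 0.1 of whole fragments, which gave the depth.

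Genes were tested on log2(FPKM + 1), which understates changes of low genes, with limma 3.58.1 (R 4.3.3), trend and robust, all 15 libraries in 1 fit with 12 residual degrees of freedom and Benjamini-Hochberg adjustment at 0.05. The script was tested on simulated data. Tables used pandas 2.3.3 and numpy 2.4.6 in Python 3.11.15, and plots matplotlib 3.10.9. Replicates are separate mice per the series' design text. The genes, lists and tests were chosen with earlier results of these data known. Named list genes were the up to 4 called with the smallest p per list and comparison, and not all are given. Alternatives covered the pseudocount, filter, scaling, model, libraries, transcripts and motif.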

Additional observations from a re-analysis of the deposited data

Results flagged for a closer look

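Among 27 groups of 5 libraries examined for the level of the 9 genes, 5 held a library that stood apart from its group by more than Dixon's 95% limit, which chance gives in about 1 group in 20. Atf4 was 45.0 FPKM in AngII+QDG 4, the highest of its group, and 61.4 FPKM in AngII 5, the highest of its group. Slc3a2 was 23.7 FPKM in AngII 3 and Slc7a5 was 2.17 FPKM in AngII 5, each the highest of its group. Slc38a2 was 17.4 FPKM in Control 4, the highest Control heart and still below the lowest AngII heart. Among 15 groups examined for the share of the main transcript, Atf5-201 held 76.8% of Atf5 in AngII+QDG 3 and Slc3a2-201 held 93.7% of Slc3a2 in Control 3, each the lowest of its group.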

How the results depend on the processing

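Slc38a2 stayed higher over Control under all 25 alternatives, by 1.33 and 1.52 with libraries set to 1 median and by 1.22 and 1.37 with the balance covariate (AngII, then AngII+QDG), and by 1.51 to 1.71 and 1.72 to 1.89 with 1 library left out. Genes called for AngII over Control numbered 1638 (1457 higher, 181 lower), but 1076 (361 and 715) with 1 median, 819 (406 and 413) with quantile normalization, 317 with the 2 groups alone, 97 without Control 3 and Control 5, and 0 with the balance. Leaving out 1 library gave 316 to 2484: 878, 316, 474 and 504 without AngII 1, 2, 4 and 5, and 982, 702, 2484 and 793 without Control 2, 3, 4 and 5. For AngII+QDG over Control, 2374 (1968 higher, 406 lower) became 2416 (791 and 1625) with 1 median and 1982 (983 and 999) with quantile normalization. The number was 1438 with the 2 groups alone, 1199 without Control 3 and Control 5, and 0 with the balance. With 1 library left out it was 1452 (without AngII+QDG 1) to 3022. For AngII+QDG over AngII, 0 became 1 with a pseudocount of 0.1, the balance and voom, and 0 to 1 with 1 library left out. Replicate numbers did not pair mice (correlations -0.10 to 0.09), and the replicate block gave 516, 0 and 1857 genes in the order AngII over Control, AngII+QDG over AngII and AngII+QDG over Control. Within-group r with Slc38a2 fell to 0.063 (Atf4) and 0.056 (Trib3) and turned to -0.19 (Atf5), -0.18 (Ddit3), -0.58 (Slc3a2) and -0.15 (Slc7a5) with quantile normalization, and to -0.095 (Atf5) and -0.57 (Slc3a2) without Control 3 and Control 5. With 1 library left out it was -0.0067 to 0.47 for Atf5 and -0.34 to 0.20 for Slc3a2. Main transcript shares for AngII over Control differed by -0.81 to 2.48 points for Atf5 (-0.73 without Control 3 and Control 5), -0.46 to 0.010 for Slc38a2 and -0.013 to 1.28 for Slc3a2. They differed by -5.05 to 0.90 for Atf5 and -1.44 to 0.19 for Slc3a2 for AngII+QDG over Control, and by -0.25 to 3.52 for Ddit3 for AngII+QDG over AngII. The causes were not tested. A motif search beyond the promoter windows was not run, and Chac1 rested on 48 to 295 fragments. Asns was listed at 0 in 5 libraries, the deepest (AngII 5) among them.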
